A study of Mus musculus with 12 samples.

Results

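Cytosolic ribosomal protein genes were examined in RNA from the developing mouse somatosensory cortex. They were taken by name, as every gene whose symbol is Rpl or Rps followed by a number (with an a or x where one exists), Rplp0, Rplp1, Rplp2 or Rpsa. This gave 76 of the 24452 gene symbols in the files, 46 of the large and 30 of the small ribosomal subunit, with 95 RefSeq transcripts, and 11 of them had several transcripts. The name rule leaves out Fau and Rps3a1, among others, whose products also belong to the cytosolic ribosome, and these are described separately. All 76 passed the filter on low counts among the 14739 genes tested.

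The libraries came from whole somatosensory cortex of male C57BL/6 mice on postnatal day 7, taken 8 hours after intraperitoneal injection, with 3 libraries in each of 4 groups. WT saline and WT ethanol mice carried intact Trp53. KO saline and KO ethanol mice were homozygous for the germline Trp53tm1Tyj disruption, carried in every cell of the body, and WT and KO pups were offspring of heterozygous parents. The labels do not say whether libraries shared a litter, so p-values measure the spread between these 12 libraries.

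The cytosolic ribosome joins amino acids into protein, and each of its subunits is a scaffold of ribosomal RNA held by many different ribosomal proteins that are made in near equal numbers. Their mRNAs are short and among the most abundant of the cell, and many begin with a run of pyrimidines, the 5′ terminal oligopyrimidine tract, through which mTOR and LARP1 adjust their translation. When ribosome assembly fails, RPL5 and RPL11, free as a complex with 5S ribosomal RNA, bind MDM2, the ubiquitin ligase that keeps p53 low, which ties this gene family to p53.

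The targeted gene was counted in every library, with Trp53 at 3.67 to 26.2 normalised CPM in the WT and 11.1 to 28.7 in the KO libraries, so its level did not tell the genotypes apart. Total counts ranged from 719735 to 17066392 per library, and the lowest was that of KO ethanol replicate 12. The RefSeq transcript NM_001127233 took 65.7% to 70.6% of the Trp53 counts in the KO saline libraries, 70.6% and 48.3% in KO ethanol replicates 10 and 18, and 7.01% to 23.1% in the WT libraries. In KO ethanol replicate 12 it took 7.01% of only 14 counts, unlike the other KO libraries. The share was 7.01% in WT saline replicates 1 and 3 and WT ethanol replicate 5 too, on 20, 51 and 78 counts, so the value does not settle the genotype. That library is called the library labelled KO ethanol replicate 12, and the comparisons with its group are given with and without it. The names of 2 libraries, WT saline replicate 3 and the library labelled KO ethanol replicate 12, open with another letter than the rest. The labels do not say what the letter means. These 2 had the lowest total counts, 1953154 and 719735, and the next was 5060577. According to the paper, cortex was laser microdissected for part of the samples and hole-punched for the later ones. The labels do not say which library was collected in which way.

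The starts of some of these genes show the features that set their mRNAs apart. RefSeq promoter windows (GRCm38.p6, 250 bases before to 50 after each listed start) were found for 56 of the 76 genes, in 66 windows. A C at the listed start followed by at least 4 further C or T, the form of a terminal oligopyrimidine tract, opened 13 of the 66 windows (19.7%) and 2.51% of all 32851 windows. The sequences run from 40 bases before to 20 bases from the listed start, on the gene's strand, with that tract in capitals. The first 4 belong to genes described below, and Rpl15 and Rps6 are shown for a long and a T-rich tract.
Rpl28, chr7:4792925-4792984, plus strand: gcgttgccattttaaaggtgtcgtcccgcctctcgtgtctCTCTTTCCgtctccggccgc
Rplp2, chr7:141447611-141447670, plus strand: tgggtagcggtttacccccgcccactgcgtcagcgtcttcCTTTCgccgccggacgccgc
Rps15a, chr7:118116128-118116187, minus strand: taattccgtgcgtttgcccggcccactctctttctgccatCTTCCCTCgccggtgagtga
Rps27, chr3:90213629-90213688, minus strand: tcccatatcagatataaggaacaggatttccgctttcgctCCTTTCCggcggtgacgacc
Rpl15, chr14:18270967-18271026, minus strand: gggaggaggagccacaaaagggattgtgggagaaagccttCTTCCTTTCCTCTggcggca
Rps6, chr4:86857348-86857407, minus strand: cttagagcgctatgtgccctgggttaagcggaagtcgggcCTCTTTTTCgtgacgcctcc

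A second feature lies beside the start rather than at it. The letters CCGGAAG, the core read by ETS factors, stood on either strand in 24 of the 66 windows (36.4%) against 8.86% of all windows, and the GC box core GGGCGG in 60.6% against 35.7%. CTTTCC, which can overlap the pyrimidine tract, was in 33 of the 66 windows against 26.6% of all windows, and TATAAA in 9.09% against 13.6%. Rpl11 and Rpl26, both tied to Mdm2 or p53, are shown because they hold no tract at the listed start, with CCGGAAG in capitals.
Rpl11, chr4:136053374-136053433, minus strand: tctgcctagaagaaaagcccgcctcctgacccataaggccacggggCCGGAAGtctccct
Rpl26, chr11:68901526-68901585, plus strand: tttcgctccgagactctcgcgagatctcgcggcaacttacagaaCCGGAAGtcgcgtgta
A listed start is the first base of a RefSeq record, and these letters are a description of the windows and not of a bound factor.

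The clearest feature of the ribosomal protein genes was how far single libraries differed in their share of the sequencing. They took 19.0%, 6.41% and 8.34% of all counts in WT saline replicates 1, 3 and 13. The share was 2.80%, 5.5% and 3.83% in WT ethanol replicates 4, 5 and 14, and 2.71%, 4.13% and 3.26% in KO saline replicates 7, 8 and 9. KO ethanol replicates 10 and 18 were at 2.83% and 2.75%, and 12.0% was found in the library labelled KO ethanol replicate 12, which was 4.28 times the mean of the other two. The highest share was 7.01 times the lowest. Each WT saline library lay above each WT ethanol and KO saline library, but WT saline replicates 3 and 13 lay closer to the WT ethanol group than to replicate 1. The group means were 11.2% ± 6.76 for WT saline (SD, n = 3) and 4.04% ± 1.36 for WT ethanol. For KO mice they were 3.36% ± 0.716 with saline and 5.84% ± 5.29 with ethanol, or 2.79% with ethanol without the library labelled KO ethanol replicate 12.

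**Figure D1:**
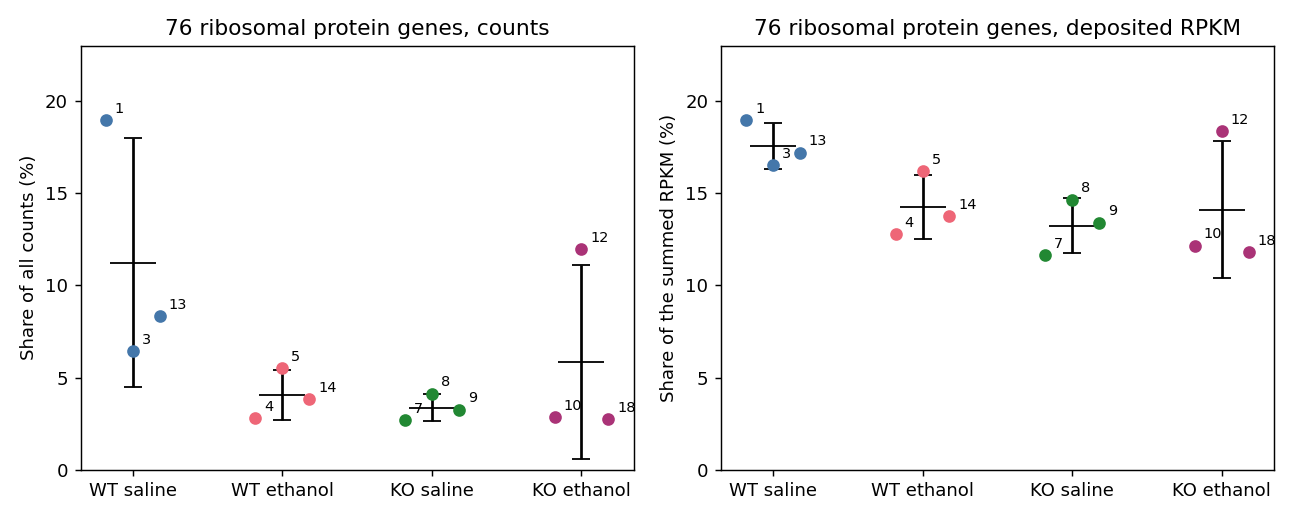
Share of the 76 ribosomal protein genes in all counts (left, percent) and in the summed deposited RPKM (right, percent) for each of the 12 libraries, with the replicate number beside each point and the mean and SD of each group in black. WT saline replicate 1 (19.0% of counts) and the library labelled KO ethanol replicate 12 (12.0%) stood above the others, and the RPKM shares spread over a narrower range, from 11.7% to 19.0%.

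The authors' RPKM are counts scaled for transcript length and depth, and they follow nearly one common distribution of values across libraries. In them the same order was compressed, except that WT ethanol replicate 4 and KO ethanol replicate 10 changed places. The share of the summed RPKM was 19.0%, 16.5% and 17.2% in the WT saline libraries, 12.8%, 16.2% and 13.8% in WT ethanol and 11.7%, 14.7% and 13.4% in KO saline. KO ethanol replicates 10 and 18 were at 12.2% and 11.8%, and 18.4% was found in the library labelled KO ethanol replicate 12. The WT saline libraries again lay above every WT ethanol and KO saline library. Because RNA was taken from whole tissue, fewer cells rich in these transcripts and less of the transcripts per cell cannot be told apart. Genes with transcripts of at least 4000 bases took 14.1% of counts in WT saline replicate 1. Their share was 18.0% in the library labelled KO ethanol replicate 12, and 20.4% to 36.4% in the other libraries. The part of collection method, RNA quality or library preparation in these differences between libraries was not tested.

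The ribosomal protein genes moved almost as a unit from library to library. WT saline replicate 1 held the highest normalised CPM (the share of counts of a library, scaled with TMM factors) for 72 of the 76 genes, and the library labelled KO ethanol replicate 12 held it for the other 4. The lowest value fell in WT ethanol replicate 4 for 30 genes, in KO ethanol replicate 18 for 18 and in KO ethanol replicate 10 for 17. All 76 genes lay above their own median in WT saline replicates 1 and 13, in WT ethanol replicate 5 and in the library labelled KO ethanol replicate 12. Across the 12 libraries, which differ in depth and group, the log2 CPM of a gene followed the mean of the other 75 with a median Pearson r of 0.98, and r was over 0.9 for 72 genes. It was lowest for Rpl34, at 0.69, Rplp2, at 0.77, and Rpl36, at 0.79. The SD of log2 CPM over the libraries was 0.74 to 1.55 for these genes with a median of 1.27, against a median of 0.69 over all genes tested.

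**Figure D2:**
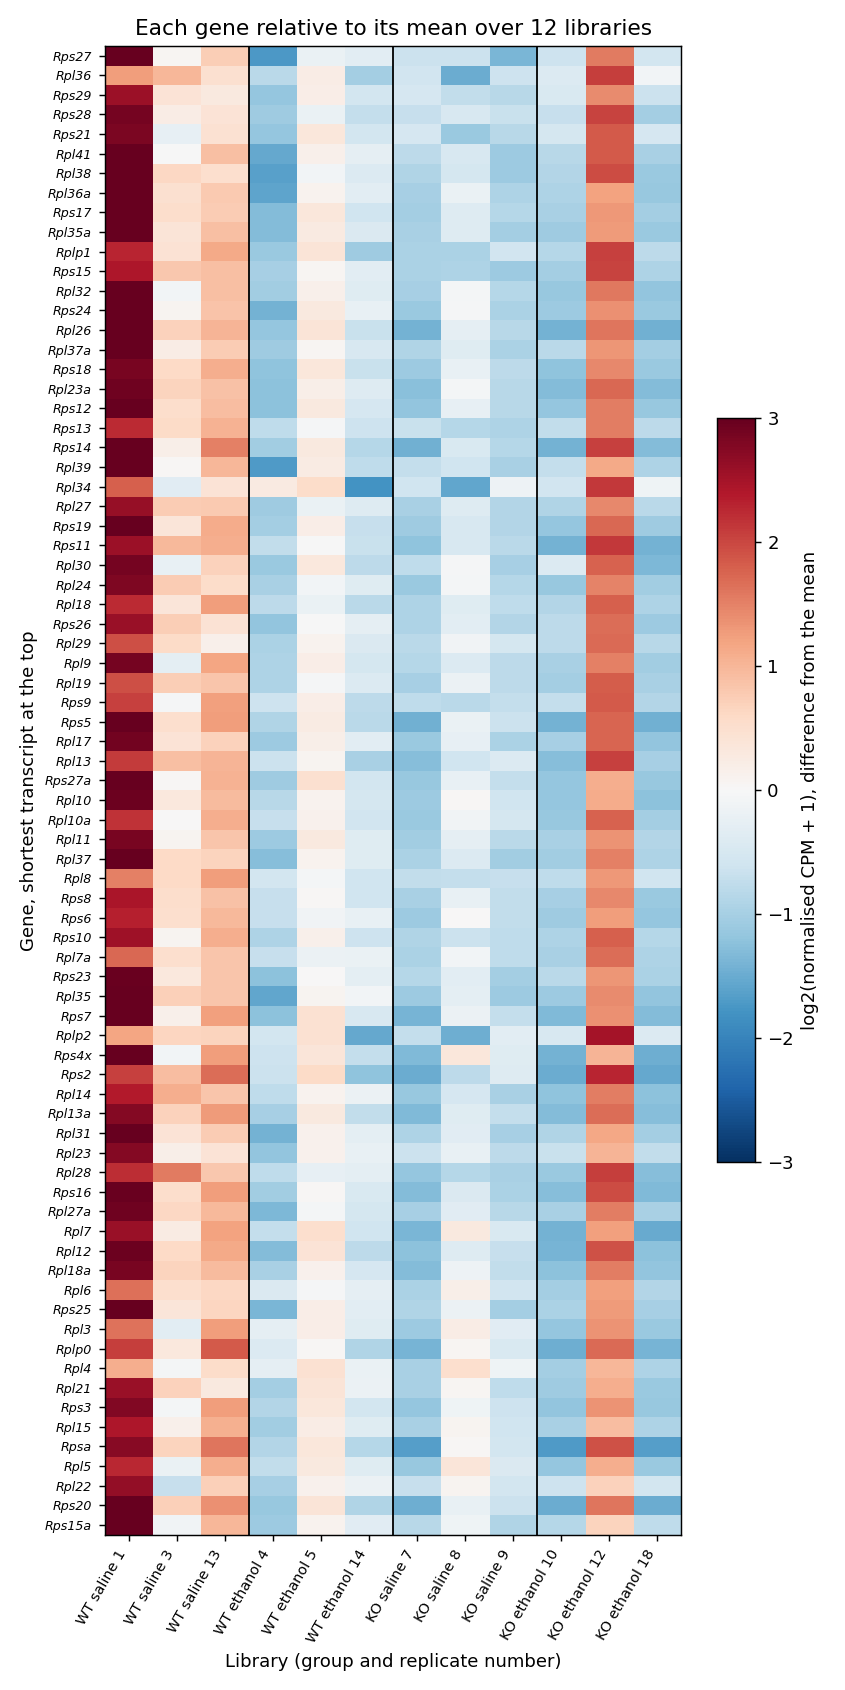
The 76 ribosomal protein genes (rows, shortest transcript at the top) in the 12 libraries (columns, by group), coloured by log2(normalised CPM + 1) minus the gene's mean over the 12 libraries, with the colour scale ending at 3 in both directions. WT saline replicate 1 and the library labelled KO ethanol replicate 12 are red in nearly every row, and WT ethanol replicate 5 and KO saline replicate 8 are paler than the other libraries of their groups.

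The balance between the subunits moved little beside these differences. The large subunit took 1.25 to 1.60 times the counts of the small subunit in the 12 libraries, and the lowest ratio was in WT saline replicate 1. Per length, Rpl41, the shortest protein of the large subunit, had the highest mean of the authors' RPKM (3913), followed by Rplp1 (2715), a protein of the stalk that recruits elongation factors, and Rps29 (2186). The lowest were Rpl34 (11.7), Rpl30 (57.1) and Rps15a (94.8), and the median gene was at 818 against 6.75 for all genes tested. The RPKM of Rpl41 was 4472 ± 778 for WT saline (SD, n = 3) and 3608 ± 473 for WT ethanol, and 3206 ± 456 for KO saline. It read 4022 and 3708 in KO ethanol replicates 10 and 18 and 5371 in the library labelled KO ethanol replicate 12.

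The annotation lists a copy named Rpl34-ps1, which took 98.8% of the counts of the pair, and its mean RPKM was 1034. Another copy, Rps27rt, took 53.2% of the counts that it shared out with Rps27. The other 7 copies took 0.492% or less of their pairs. Reads of Rpl34, Rps27 and their copies may have been divided between near-identical sequences, so the values of both genes are uncertain. The GENCODE transcript matched to Rps15a is the longest of the 76, at 5179 bases, where the median is 795, and the length behind its deposited RPKM was not checked.

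Ethanol against saline in WT mice asks how acute ethanol changes these transcripts when p53 is present. At an unadjusted p under 0.05, the level the study used, 70 of the 76 ribosomal protein genes were lower after ethanol and none was higher, while 8.36% of all genes tested were called lower and 9.99% higher. The median log2 fold change was -2.15 (range -3.17 to -0.57), against 0.06 over all genes. No ribosomal protein gene passed an adjusted p under 0.05 in edgeR (0.0746% of all genes did), where DESeq2 called 18 (3.31% of all genes), and 72 passed the study's adjusted level of 0.30 (22.5% of all genes did). The calls at 0.30 dropped to 0 in a fit of the WT libraries alone and without WT saline replicate 1 or WT ethanol replicate 4, and to 2 without WT ethanol replicate 14. Without TMM factors the median of the 76 genes was -1.49 and that of all genes 0.49, and over all genes 318 were called lower and 2676 higher, against 1232 and 1472 with them. Every WT saline library lay above every WT ethanol library for 51 genes, as for 8.3% of all genes tested.

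Rpl39, a small protein of the nascent peptide exit tunnel, had the smallest p. It was at 9071, 589 and 1157 normalised CPM in WT saline replicates 1, 3 and 13 and at 177, 687 and 340 in WT ethanol replicates 4, 5 and 14. WT ethanol replicate 5 thus lay above WT saline replicate 3, and the groups overlapped. The log2 fold change was -3.17 ± 0.94 (SE, adjusted p = 0.185 in edgeR). Without WT saline replicate 1 it was -1.15 and was not called.

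Rps27, of the small subunit surface and reported to bind MDM2, read 4425, 349 and 564 normalised CPM in WT saline and 102, 295 and 271 in WT ethanol. These groups did not overlap, though WT saline replicate 3 was close to the highest ethanol library. The log2 fold change was -3.0 ± 0.90 (adjusted p = 0.189), and -3.02 with the counts of its copies added. Without WT saline replicate 1 it was -1.06 and was not called.

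Rpl27, of the large subunit, was at 2100, 578 and 592 normalised CPM in WT saline and at 161, 295 and 259 in WT ethanol, with every saline library above every ethanol library. The log2 fold change of Rpl27 was -2.19 ± 0.68 (adjusted p = 0.193), and -1.32 without WT saline replicate 1, where it was not called. Rps15a, of the small subunit, was at 4968, 490 and 1049 in WT saline and at 246, 567 and 414 in WT ethanol, where replicate 5 exceeded WT saline replicate 3. It changed by -2.41 ± 0.75 on the log2 scale (adjusted p = 0.195), and by -0.94 without WT saline replicate 1, where it was not called.

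**Figure D3:**
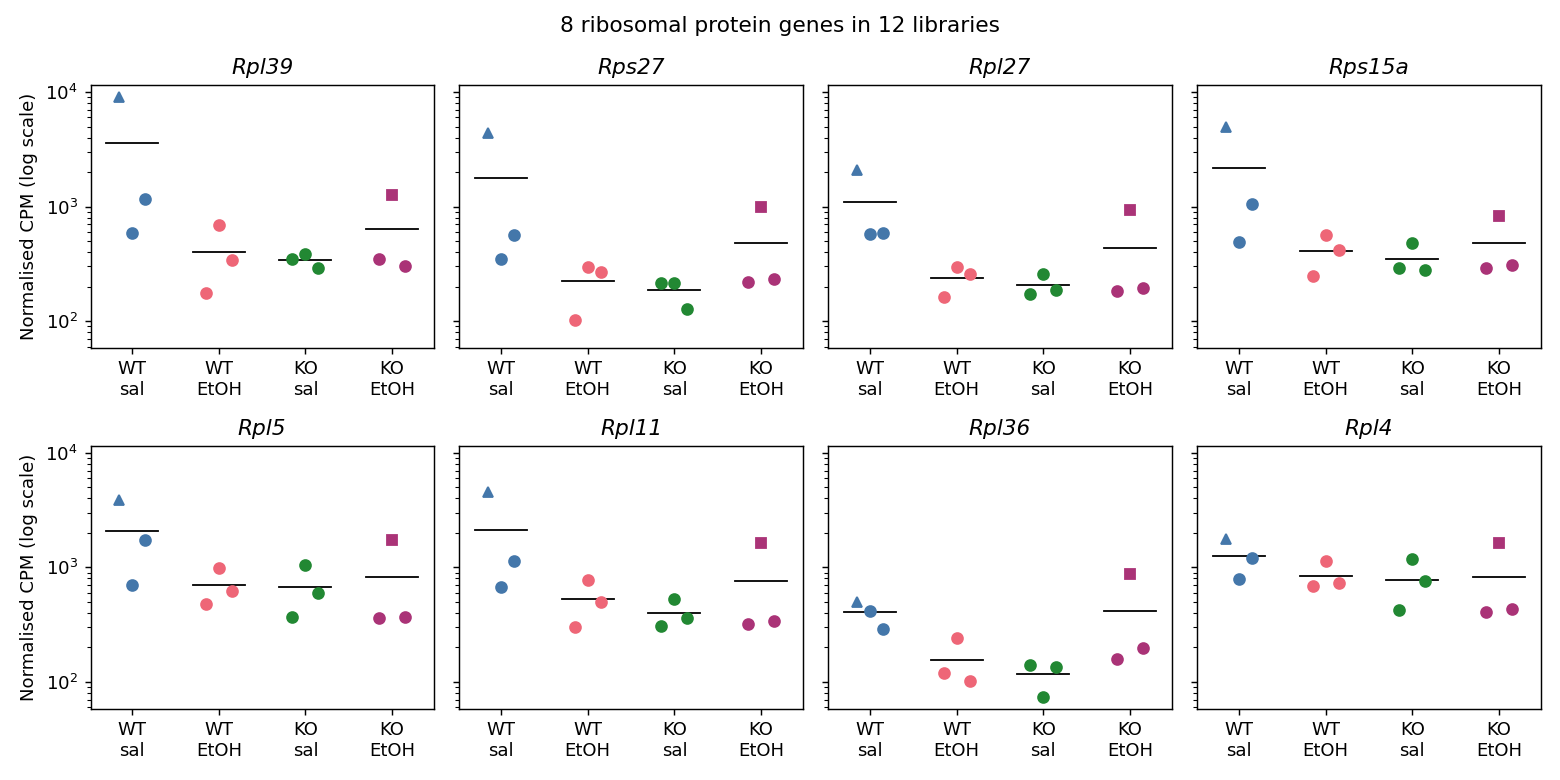
Normalised CPM (log scale) of 8 ribosomal protein genes in each library, by group, with the group mean as a line. The triangle is WT saline replicate 1, the square is the library labelled KO ethanol replicate 12, and these libraries set the group means of Rpl39, Rps27 and Rps15a, whereas the libraries of Rpl4 overlapped in all 4 groups.

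The 6 genes that did not pass in the WT comparison were Rpl3, Rpl4, Rpl6, Rplp2, Rps2 and Rpl34, with log2 fold changes from -1.84 to -0.57. Rpl4, a large protein that lines the exit tunnel, showed the smallest difference and the smallest SD over the libraries (0.74). It was at 1768, 789 and 1210 normalised CPM in WT saline, 683, 1125 and 723 in WT ethanol and 421, 1174 and 752 in KO saline, and the 3 groups overlapped. The next smallest SDs belonged to Rpl6 (0.86) and Rpl8 (0.91), and the largest to Rps14 (1.55), Rpl26 (1.53) and Rps20 (1.51). Rps20, of the small subunit head, ranged from 208 CPM in KO ethanol replicate 18 to 5761 in WT saline replicate 1. Rps14, of the small subunit platform, ranged from 249.5 in KO saline replicate 7 to 6905 in WT saline replicate 1.

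KO saline against WT saline asks what the absence of p53 changes without ethanol, and it uses the same WT saline libraries as the comparison above. Here 73 of the 76 genes were lower in KO saline at an unadjusted p under 0.05 and none was higher (10.5% of all genes were lower and 9.14% higher). The median log2 fold change was -2.45 (range -3.40 to -0.68), against 0.04 over all genes. By edgeR, 0 passed an adjusted p under 0.05 (0.0543% of all genes did), where DESeq2 called 53 (4.86% of all genes), and 75 passed at 0.30 (25.8% of all genes did). The calls at 0.30 dropped to 0 without WT saline replicate 1, KO saline replicate 8 or KO saline replicate 9, and to 28 without KO saline replicate 7. Without TMM factors 472 of all genes were called lower and 2527 higher, against 1543 and 1347 with them. The genes not called at an unadjusted p under 0.05 were Rpl3, Rpl4 and Rpl34. For 67 genes every WT saline library lay above every KO saline library, as for 10.0% of all genes.

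Rps13, of the small subunit, read 1458, 459 and 631 normalised CPM in WT saline and 191, 168 and 160 in KO saline, and the groups were well apart. For Rps13, the log2 fold change was -2.30 ± 0.63 (adjusted p = 0.176 in edgeR), and -1.67 without WT saline replicate 1, where it was still called. Rpl39 was at 351, 383 and 293 in KO saline, below each WT saline library, with a log2 fold change of -3.40 ± 0.95 (adjusted p = 0.176). Rps27 was at 214, 215 and 129 in KO saline, with a log2 fold change of -3.26 ± 0.91 (adjusted p = 0.176). Without WT saline replicate 1, neither Rpl39 nor Rps27 was called in KO saline.

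Rpl8, which reaches toward the peptidyl transferase centre, was among the least variable genes and differed between the groups all the same. It was at 1347, 705 and 1120 normalised CPM in WT saline, 282, 286 and 291 in KO saline and 320, 451 and 310 in WT ethanol, so WT saline lay above both other groups in every library. The log2 fold change of KO saline against WT saline was -1.89 ± 0.54 (adjusted p = 0.176), and without WT saline replicate 1 it was -1.69 and still called. In the WT ethanol comparison without that library, Rpl8 was the 1 gene still called, at -1.37.

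The deposited RPKM values, which look quantile-normalized, gave smaller differences. Tested with limma on log2(RPKM + 1), 7 of the 76 genes were lower after ethanol (5.34% of all genes) with a median of -0.35, and 13 in KO saline (5.49%) with a median of -0.48, on that scale. A single library carried much of the size of both differences in the count fit. Without WT saline replicate 1, the median log2 fold change of the 76 genes was -1.06 after ethanol in WT mice and -1.35 in KO saline, and all 76 values stayed below 0. The calls at an unadjusted p under 0.05 dropped to 1 (3.61% of all genes were called lower in that fit) and 14 (4.15%). Without both that library and the library labelled KO ethanol replicate 12, which shares the estimate of spread with the other groups, the medians were -1.06 and -1.35 again. Then 53 genes were called lower after ethanol (7.16% of all genes) and 69 in KO saline (8.01%). Among the 10 libraries that share the first letter of their names, 74 genes were lower after ethanol (18.4% of all genes) and 76 in KO saline (19.6%), with 73 and 75 at an adjusted p under 0.05 in edgeR (21.5% and 25.3% of all genes). Those 10 libraries keep WT saline replicates 1 and 13 but not replicate 3, whose share of 6.41% was the lowest of that group. WT ethanol replicates 4 and 14 mattered too, since 25 and 38 genes were called after ethanol without them (3.65% and 6.18% of all genes).

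**Figure D4:**
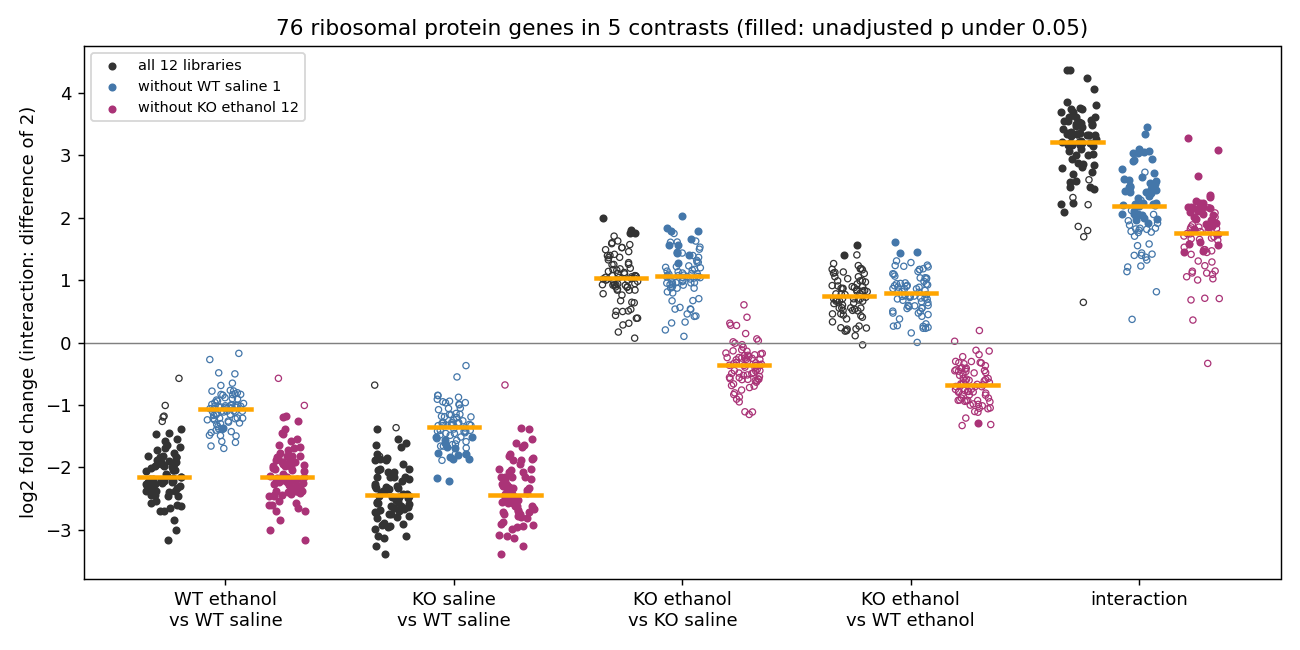
Log2 fold change of each of the 76 ribosomal protein genes in the 5 contrasts, from all 12 libraries (black), without WT saline replicate 1 (blue) and without the library labelled KO ethanol replicate 12 (purple), with filled points at an unadjusted p under 0.05 and the median in orange. The first 2 contrasts stayed below 0 in all 3 fits, while the contrasts with the KO ethanol group moved from a median of 1.04 to -0.37 and from 0.75 to -0.68 without the library labelled KO ethanol replicate 12.

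Ethanol against saline in KO mice asks for the effect of ethanol without p53, and the answer turned on 1 library. With all libraries, 4 of the 76 genes were higher after ethanol and none lower (1.15% of all genes were higher and 2.01% lower), with a median log2 fold change of 1.04. They were Rpl36, Rplp2, Rpl28 and Rps15. By edgeR, 0 passed an adjusted p under 0.05 or 0.30, and DESeq2 called 14 at an unadjusted p under 0.05 (2.25% of all genes) and 0 at either adjusted level. Without the library labelled KO ethanol replicate 12, no gene was called and the median was -0.37.

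Rpl36, of the large subunit, was at 141, 74.3 and 135 normalised CPM in KO saline and at 158 and 197 in KO ethanol replicates 10 and 18, and read 883 in the library labelled KO ethanol replicate 12. The log2 fold change was 1.81 ± 0.61 (adjusted p = 0.999), and 0.60 without that library, where it was not called. Rplp2, a stalk protein, was at 107, 63.3 and 141 in KO saline and at 126, 996 and 132 in replicates 10, 12 and 18 of KO ethanol. It differed by 2.0 ± 0.74 on the log2 scale (adjusted p = 0.999), and by 0.31 without the library labelled KO ethanol replicate 12.

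Rpl28 was at 137, 172 and 158 normalised CPM in KO saline and 143, 1314 and 127 in KO ethanol, so replicates 10 and 18 lay within or below the range of saline. For Rpl28, the log2 fold change was 1.75 ± 0.73 (adjusted p = 0.999), and -0.20 without the library labelled KO ethanol replicate 12. Rps15, of the small subunit head, showed the same pattern, with 372, 377 and 338 in KO saline and 355, 2939 and 376 in KO ethanol. Its log2 fold change moved from 1.75 ± 0.75 (adjusted p = 0.999) to 0.01.

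KO ethanol against WT ethanol gave a like picture. Rpl36 and Rplp2 were higher in KO ethanol at an unadjusted p under 0.05 and no gene was lower (0.977% of all genes were higher and 2.26% lower), with a median of 0.75. The next smallest p-values belonged to Rps28, with a log2 fold change of 1.41, and Rpl18, with 1.17, and without the library labelled KO ethanol replicate 12 these were -0.23 and -0.33. In edgeR no gene passed an adjusted p under 0.05 or 0.30, and DESeq2 called 2 at an unadjusted p under 0.05 (1.83% of all genes). Without the library labelled KO ethanol replicate 12, 1 gene was lower (Rps2, of the small subunit and named after its value was seen, at -1.29, where 1.58% of all genes were lower) and the median was -0.68.

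The interaction, which subtracts the WT response to ethanol from the KO response, asks whether the response to ethanol depended on p53. It was above 0 at an unadjusted p under 0.05 in 69 of the 76 genes and below 0 in none (7.5% of all genes were above and 7.67% below), with a median of 3.22 against -0.11 over all genes. By edgeR, 0 passed an adjusted p under 0.05 and 66 passed at 0.30 (11.1% of all genes did), where DESeq2 called 29 at 0.05 (1.73% of all genes). The calls at 0.30 dropped to 0 without any 1 of 6 libraries, which were WT saline replicate 1, WT ethanol replicates 4 and 14, KO saline replicates 8 and 9 and the library labelled KO ethanol replicate 12, and also with the first letter of the library name as a covariate or with trends with transcript length and GC content removed. At an unadjusted p under 0.05, 46 genes were called without WT saline replicate 1 (5.41% of all genes) and 23 with the covariate (4.08% of all genes). With limma on log2(RPKM + 1), 5 were above 0 (5.07% of all genes) and 1 below, with a median of 0.45. Without TMM factors 440 of all genes were called above 0 and 1852 below, against 1106 and 1131 with them. Rpl36 had the smallest p (3.19 ± 0.86, adjusted p = 0.250), followed by Rpl28 (3.80 ± 1.04), Rps13 (3.17 ± 0.87) and Rps27 (4.37 ± 1.24). Without the library labelled KO ethanol replicate 12 these were 1.98, 1.85, 1.97 and 3.28, in the same order, and all 4 were still called. The interaction moved with both libraries of the highest shares. Without the library labelled KO ethanol replicate 12, 33 genes were called (3.58% of all genes) with a median of 1.76, and without both that library and WT saline replicate 1, 7 were called (2.94% of all genes) with a median of 0.70.

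The genes tied to p53 surveillance did not stand apart from the rest of the family. All 7 of them, Rpl5, Rpl11, Rpl23, Rpl26, Rps7, Rps27 and Rps27a, were lower after ethanol in WT mice and in KO saline, with medians of -2.38 and -2.78 beside -2.15 and -2.45 for all 76. Rpl5, one of the 5S ribonucleoprotein, was at 3844, 703 and 1718 normalised CPM in WT saline and 482, 987 and 627 in WT ethanol, and the groups overlapped. For Rpl5, the log2 fold change was -1.58 ± 0.73 (adjusted p = 0.266), and its interaction did not pass (1.86 ± 1.01, adjusted p = 0.401).

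Rpl11, its partner in the 5S ribonucleoprotein, was at 4566, 671 and 1128 normalised CPM in WT saline, 299, 779 and 494 in WT ethanol, and 308, 526 and 362 in KO saline. KO saline lay below every WT saline library, and WT ethanol overlapped with it. The log2 fold changes were -2.02 ± 0.77 (adjusted p = 0.217) after ethanol and -2.41 ± 0.78 (adjusted p = 0.176) in KO saline. Rpl26, which binds the p53 mRNA, was at 985, 137 and 171 in WT saline and 36.9, 110 and 52.5 in WT ethanol, without overlap, and its log2 fold change was -2.70 ± 0.90 (adjusted p = 0.203).

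Rps7, which binds MDM2, read 10396, 1105 and 2327 normalised CPM in WT saline and 421, 1377 and 716 in WT ethanol. WT ethanol replicate 5 exceeded WT saline replicate 3, and the log2 fold change was -2.46 ± 0.91 (adjusted p = 0.215). Rpl23 and Rps27a, the latter made as a fusion with ubiquitin, had log2 fold changes of -1.95 ± 0.71 (adjusted p = 0.214) and -2.38 ± 0.85 (adjusted p = 0.208). Without WT saline replicate 1, none of these 7 genes was called after ethanol.

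Outside the family, Mdm2 and Mdm4 were the 2 of 9 further p53 surveillance genes called higher after ethanol in WT mice. Rps27l was the 1 lower, and 9.99% of all genes were higher and 8.36% lower. Mdm2 was at 12.5, 20.6 and 17.6 normalised CPM in WT saline and 34.4, 31.4 and 30.2 in WT ethanol, with no overlap and a log2 fold change of 0.93 ± 0.32 (adjusted p = 0.208). Mdm4, a relative of Mdm2 that holds p53 inactive, had a log2 fold change of 1.09 ± 0.50 (adjusted p = 0.267), and its groups overlapped. Against the same WT saline libraries, Mdm4 was also higher in KO saline, without ethanol, by 1.38 ± 0.51 (adjusted p = 0.185 in edgeR). There Mdm2 was at 0.65 ± 0.32 and was not called. Cdkn1a, the p53 target that stops the cell cycle, was at 45.9, 27.8 and 54.9 in WT saline and 106, 48.7 and 20.2 in WT ethanol and was not called.

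By place in the ribosome, the groups of genes gave similar numbers. After ethanol in WT mice, 41 of 46 large subunit genes were lower (median -2.06) and 29 of 30 small subunit genes (median -2.27). Of all genes, 8.36% were lower there. In KO saline, 43 large (median -2.35) and 30 small subunit genes (median -2.56) were lower, with 10.5% of all genes. Of the 3 stalk genes, 2 were lower after ethanol, with Rplp0, the stalk base, at -1.97 ± 0.80 (adjusted p = 0.230). The 6 genes of the exit tunnel had a median of -2.18, from Rpl39 to Rpl4. The 6 of the mRNA path had a median of -1.97, and the 3 at the peptidyl transferase centre -1.55, among them Rpl10 at -2.21 ± 0.77 (adjusted p = 0.208) and Rpl3 at -1.19 ± 0.69 (adjusted p = 0.357). The 4 genes on the X chromosome, Rpl10, Rpl36a, Rpl39 and Rps4x, were all lower, with a median of -2.45.

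When each library was scaled to its own total over the 76 genes, so that a change is relative to that total, Rpl4 was the 1 gene called in each of the WT ethanol, KO saline and interaction contrasts. All genes called in the same directions made up 35.8%, 43.2% and 17.4%, so the count of members lay below that of all genes. The relative level of Rpl4 was higher by 1.22 ± 0.55 on the log2 scale after ethanol (adjusted p = 0.128) and by 1.28 ± 0.55 in KO saline (adjusted p = 0.0996), and the interaction was -1.82 ± 0.77 (adjusted p = 0.278). At an adjusted p under 0.30 in edgeR, Rpl3 and Rpl34 passed besides Rpl4 after ethanol, and Rpl3, Rpl5 and Rpl22 in KO saline. These others were all at an unadjusted p above 0.05. Of all 14739 genes, 11562 passed at 0.30 after ethanol and 12862 in KO saline, so the ribosomal protein genes passed far less often. The highest library held 4.37 times the CPM of the lowest for Rpl4, against 51.1 times for Rpl39 and a median near 16.7 for the family. The scaling shifts the other genes by construction, and the median of all genes tested then rose by 1.69 after ethanol.

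The division of counts between transcripts varied most from library to library in Rpl22, Rpl30 and Rpl34. The main Rpl22 transcript took 19.9% to 59.4% of the gene's counts over the 12 libraries, that of Rpl30 45.8% to 76.1%, and that of Rpl34 76.5% to 99.6%. In the other 8 genes with several transcripts the SD of this share was at most 3.95 percentage points.

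Fau, Rps3a1 and Rack1, which the name rule missed, were also lower after ethanol in WT mice. Fau, made as a fusion of a ubiquitin-like protein with ribosomal protein S30, was at 2085, 502 and 764 normalised CPM in WT saline and 230, 391 and 274 in WT ethanol, without overlap (log2 fold change -1.90 ± 0.79, adjusted p = 0.235). Rps3a1, of the small subunit, changed by -1.82 ± 0.78 (adjusted p = 0.244). Rack1, a scaffold on the small subunit head, changed by -1.92 ± 0.70 (adjusted p = 0.211). Of 8 paralogs and copies tested, 5 were lower after ethanol and in KO saline. They were Rpl22l1 (-2.77 ± 0.89 after ethanol, adjusted p = 0.197), Rps27l, a known p53 target (-2.21 ± 0.70, adjusted p = 0.197), Rpl36al, Rps27rt and Rpl34-ps1. Rpl7l1, Rps4l and Rsl24d1 were not called, Rpl10l was at 0 in every library, and Rpl3l and Rpl39l were too low to be tested.

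Other genes of the pathway followed in part. Of 77 mitochondrial ribosomal protein genes, 39 were lower after ethanol in WT mice (median -0.92) and 46 in KO saline (median -1.04), and none was higher. Of 39 translation factor genes, 13 and 17 were lower (medians -0.87 and -0.84). The lowest of the 39 after ethanol was Tpt1, a TOP mRNA, at -2.19 ± 0.84 (adjusted p = 0.216 in edgeR). Eef1a1, an elongation factor, changed by -1.41 ± 0.78 (adjusted p = 0.337) and was not called. Of 51 ribosome assembly and RNA polymerase I genes, by contrast, 5 were lower and 1 higher after ethanol (median 0.06), and Npm1, the assembly chaperone, was not called. Among 26 genes of the mTOR pathway, 2 were lower and 3 higher (median 0.09), and among 15 snoRNA host genes 2 were lower (median 0.02), with Gas5 at 0.02 ± 0.62.

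Genes with no part in the ribosome but with short, abundant transcripts moved in the same direction. Of 56 short nuclear genes of oxidative phosphorylation, 51 were lower after ethanol in WT mice (median -1.69), and 54 in KO saline (median -1.96). Of the other 834 genes tested with transcripts under 1000 bases, 360 were lower and 13 higher after ethanol (median -1.10). Of the 4526 genes with transcripts of at least 4000 bases, 69 were lower and 865 higher (median 0.49). By length class, the median over other genes ran from -1.48 under 500 bases to 0.56 from 5000 bases, while the ribosomal protein genes lay at -2.34 in the shortest class (11 genes) and at -2.13 between 1000 and 1500 bases (14 genes), where other genes were at -0.62. With each library's trends with transcript length and GC content removed, 27 ribosomal protein genes were lower after ethanol (median -1.08, 8.28% of all genes called), 36 in KO saline (median -1.11, 6.56%) and 10 had an interaction above 0 (median 1.18, 4.8%). These trend-removed log2 CPM were tested with limma, where 4, 0 and 0 of the ribosomal protein genes passed an adjusted p under 0.30. Of all 14583 genes in that fit, 656, 91 and 0 passed. What sets the trend with length was not tested.

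**Figure D5:**
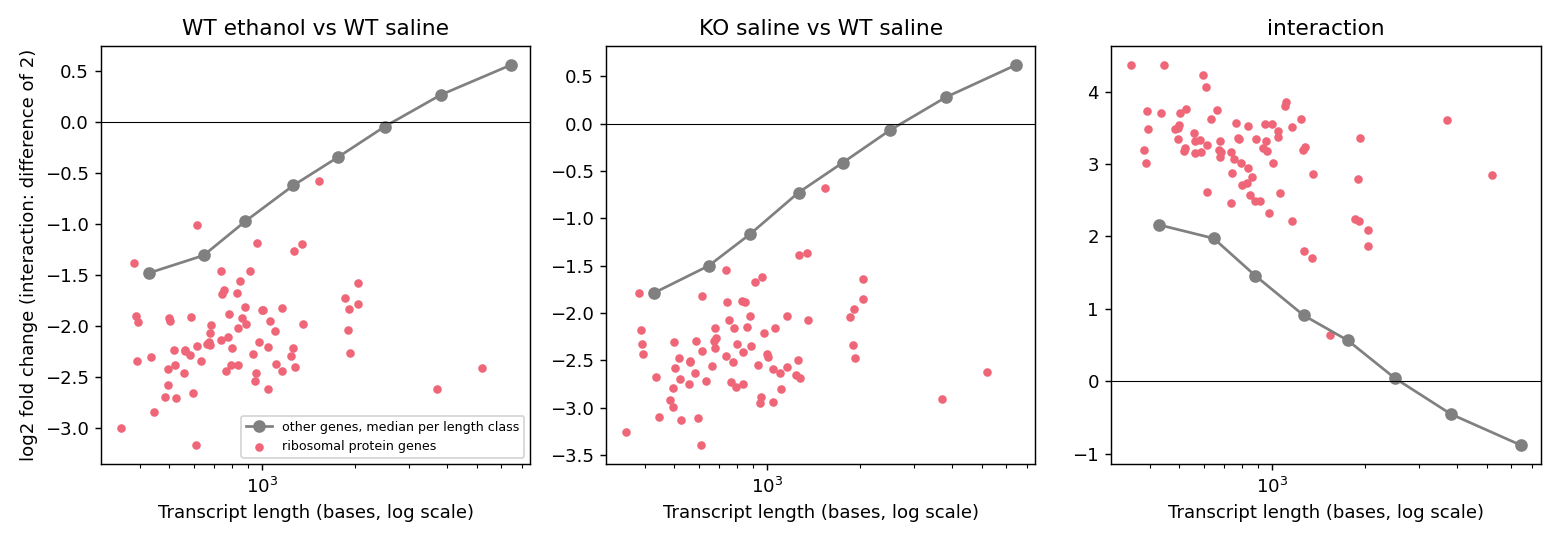
Log2 fold change against transcript length (bases, log scale) for the 76 ribosomal protein genes (red) and the median of the other genes tested in 8 length classes (grey) in 3 contrasts. The grey line rose from -1.48 to 0.56 after ethanol in WT mice, and nearly all ribosomal protein genes lay below it, including Rps20 and Rps15a, whose listed transcripts are the longest of the family.

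Several other measures moved with the libraries that held the most ribosomal protein counts. The other short genes took 16.3% of counts in WT saline replicate 1 and 11.6% in the library labelled KO ethanol replicate 12, and 3.83% to 7.76% in the rest. Meg3, a nuclear long non-coding RNA noticed after its values were seen, was at 58.8, 1320 and 17.2 normalised CPM in WT saline. Meg3 was at 1577, 1069 and 2614 in WT ethanol and 5689, 844 and 826 in KO saline. It was at 5781 and 7019 in KO ethanol replicates 10 and 18, and 209 in the library labelled KO ethanol replicate 12. Snhg11 was at 165, 695 and 25.1 in WT saline, 666 to 1631 in WT ethanol, and 81.9 in that library. Malat1 did not follow, at 422, 322 and 205 in WT saline, 253 to 459 in WT ethanol, and 647 in that library. Rian was at 1785, 835 and 1228 in WT saline, 1054 to 2243 in WT ethanol, and 647 in that library. The 7 red blood cell genes, none of them at 0 everywhere, summed to 458 to 2772 CPM (WT saline) and 102 to 298 (WT ethanol), and for KO mice to 64.8 to 181 with saline and 60.7 to 1331 with ethanol, and all 7 were lower after ethanol in WT mice. The part of these measures in the differences of the ribosomal protein genes was not tested.

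The 10 neuron markers summed to 9498 to 11208 CPM (WT saline) and 5569 to 9297 (WT ethanol), and for KO mice to 7488 to 10452 with saline and 6280 to 12166 with ethanol, and 1 was lower and 1 higher after ethanol in WT mice. None of 8 astrocyte, 9 oligodendrocyte or 10 vascular and meningeal markers was lower in that comparison, while 1 vascular marker was higher, and 2 of 9 microglia markers were lower. In KO saline, 3 vascular, 3 microglia and 1 neuron markers were lower and 1 vascular and 1 oligodendrocyte marker higher. The 5 choroid plexus and hippocampus markers summed to 23.7 to 140 in WT saline and to 8.36 to 5061 in the other groups, and after ethanol in WT mice 2 of the 5 were higher, with a median log2 fold change of 2.28 (range 0.98 to 5.29). No marker list was at 0 in all libraries, and the part of cell composition in the results was not tested.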

How the data were processed

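RNA was sequenced from whole somatosensory cortex in 12 libraries. The authors aligned reads to mm10 with Bowtie2 in TopHat and estimated counts per RefSeq transcript in Partek Flow, and these deposited estimated counts are not scaled and hold fractions. The authors also deposited RPKM per transcript, which look quantile-normalized. Groups and replicate numbers came from the sample labels. Estimated counts were summed per symbol, rounded and fitted in edgeR 4.0.16 (R 4.3.3) with its default filter, TMM factors and 4 group means over 12 libraries. The two-sided quasi-likelihood test gave p-values, called at 0.05 unadjusted unless stated, and adjusted by Benjamini-Hochberg over all 14739 genes, and an SE was derived from each F statistic. CPM are TMM-scaled. Transcript lengths and GC content came from GENCODE on GRCm38 and promoter windows from RefSeq. The fit was tested on simulated counts drawn independently for each gene. They hold no differences between single libraries shared by many genes, so the simulation does not cover the pattern described here. Alternatives used DESeq2 1.42.0, limma 3.58.1 on the log2 RPKM with a pseudocount of 1 or 0.1, other scalings and filters, single transcripts, trend removal by splines with 5 degrees of freedom, and fewer libraries. Python 3.11.15, scipy 1.17.1 and matplotlib 3.10.9 made the summaries.

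The genes and lists were chosen with earlier results of these data known. Named were the genes tied to Mdm2 or p53, the 4 with the smallest p in each contrast, the 3 highest and 3 lowest in RPKM and in SD of log2 CPM, and the 3 with the most variable division between transcripts. The addition of copies and the removal of both libraries with the highest shares were chosen after seeing the data. The smallest p of an exact permutation of 3 libraries against 3 is 0.1, so none was run. The depth per library limits the precision, most of all in the library with 719735 counts.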

Additional observations from a re-analysis of the deposited data

Results flagged for a closer look

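The response of the ribosomal protein genes to ethanol differed between WT and KO mice by the test of the interaction in edgeR. It was above 0 at an unadjusted p under 0.05 in 69 of the 76 genes (7.5% of all genes were above 0 and 7.67% below), with a median of 3.22 on the log2 scale, and no gene passed an adjusted p under 0.05. Among the genes tied to Mdm2 or p53, the interaction was 2.95 for Rpl11, 2.59 for Rpl23, 3.75 for Rpl26, 4.37 for Rps27, 3.02 for Rps27a and 3.32 for Rps7, and for Rpl5 it was 1.86 and did not pass. It was 3.8 for Rpl28, 3.19 for Rpl36 and 3.17 for Rps13. Without WT saline replicate 1 the median was 2.19 with 46 genes called (5.41% of all genes), and without the library labelled KO ethanol replicate 12 it was 1.76 with 33 called (3.58%). Without both libraries, which held the highest shares of ribosomal protein counts, it was 0.70 with 7 called (2.94%). With the trends with transcript length and GC content removed 10 were called (4.8%), and with the first letter of the library name as a covariate 23 (4.08%). In limma on log2(RPKM + 1), 5 were above 0 and 1 below, with a median of 0.45.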

How the results depend on the processing

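The number of genes called after ethanol in WT mice was 1 to 74 when single libraries were left out (median log2 fold change -2.54 to -1.06), in KO saline 14 to 75 (-2.84 to -1.35), in the KO ethanol against KO saline contrast 0 to 22 (-0.37 to 1.47), in KO ethanol against WT ethanol 0 to 9 (-0.68 to 1.19), and for the interaction 33 to 75 (1.76 to 3.70). The calls over all genes moved too. After ethanol in WT mice, 543 of 15038 genes were lower in the fit with 1 ribosomal protein gene called and 1555 of 15007 in that with 74. In KO saline, 624 of 15038 were lower with 14 called, and 1858 of 15007 or 2452 of 14996 with 75. For the interaction, 537 of 15007 were above 0 with 33 called, and 1242 to 1709 with 75. KO ethanol against KO saline gave 21 calls without KO ethanol replicate 10, all higher, where 380 of 15008 genes were higher. Without KO ethanol replicate 18 it gave 22 (373 of 14976 genes), and without WT saline replicate 1 it gave 11 (246 of 15038 genes). KO ethanol against WT ethanol gave 0 without WT ethanol replicate 4 or 14, and 9 higher calls without KO ethanol replicate 10 (230 of 15008 genes). Values below are in the order WT ethanol, KO saline, KO ethanol against KO saline, KO ethanol against WT ethanol and interaction.
With limma on log2 RPKM the calls were 7, 12, 1, 0 and 5 with a pseudocount of 0.1 and 7, 13, 1, 1 and 6 with 1. With 0.1, 696 and 682 of 14739 genes were lower in the first 2 contrasts. For the interaction, 697 were above 0 and 952 below. The medians of the ribosomal protein genes were -0.35, -0.48, 0.06, -0.10 and 0.45 for both pseudocounts. With trends with length and GC content removed they were 27, 36, 0, 0 and 10 calls, with medians of -1.08, -1.11, 0.13, 0.05 and 1.18. Scaled to the ribosomal protein total they were 1, 1, 0, 0 and 1, with medians of -0.028, -0.016, 0.042, 0.031 and 0.093. With both libraries of the highest shares left out they were 53, 69, 0, 10 and 7, with medians of -1.06, -1.35, -0.39, -0.69 and 0.70. The 10 were lower, as were 353 of 15007 genes. Without the 2 libraries of the other name letter, KO ethanol gave 1 lower call against KO saline (437 of 14967 genes were lower, median -0.39). Against WT ethanol it gave 7 lower calls (504 of 14967 genes, median -0.69). With the letter as a covariate the calls in these 2 contrasts were 0 and 0, and 23 interactions were called.
KO ethanol against KO saline gave 14 higher calls in DESeq2 (2.25% of all genes) and 7 with at least 1 count in any library (324 of 19364 genes). KO ethanol against WT ethanol gave 1 with at least 10 counts in every library, with each transcript on its own or without TMM factors, and 0 with only the groups compared. Without TMM factors the medians of the ribosomal protein genes were -1.49 after ethanol, -1.75 in KO saline and 2.37 for the interaction, where those of all genes were 0.49, 0.49 and -0.52.
Of 860 alternatives for 32 named gene results, 675 kept direction and call, 157 lost and 5 gained the call, and 23 reversed. In KO ethanol against KO saline, Rpl28 reversed to -0.20 without the library labelled KO ethanol replicate 12 and to -0.22 without the other-letter libraries or both with the highest shares, and Rps15 to -0.0064 and -0.0069 in the last 2. In KO ethanol against WT ethanol, in the same order, Rplp2 was at -0.12, -0.13 and -0.13, Rps28 at -0.23, -0.24 and -0.24, and Rpl18 at -0.33, -0.34 and -0.34. Single libraries left out gave up to 2.26 for Rpl28, 2.2 for Rplp2, 1.90 for Rps28 and 1.63 for Rpl18 in these contrasts. Scaled to the ribosomal protein total, Rpl5 was at 0.49 after ethanol and 0.63 in KO saline, Rpl11 at 0.20 and 0.11, Rpl23 at 0.29 and 0.41, and Rpl8 at 0.14 in KO saline. Rpl11 was at 0.044 after ethanol in RPKM. The cause was not tested. No paired analysis was possible because the replicate numbers are library numbers that no groups share. The ribosomal protein gene with the fewest counts had 6.18 to 135 counts per library, so depth limits the values of the lowest genes most.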
